A study of Drosophila melanogaster with 53 samples.

Results

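The early-late receptor genes *Hr46* (also known as *dhr3*), *Hr4* and *Hr39* and the competence factor gene *ftz-f1* were taken by name from the RNA-seq tables of *Drosophila* S2 cells. They are 4 of the 15598 genes listed, and their 22 transcripts are all of the transcripts given for them among 28704. S2 is a cell line derived from *Drosophila* embryos. Cells of 1 group were treated for 1 h with 0.3 μM 20-hydroxyecdysone (20E), the steroid hormone of the fly, and cells of the other with an equal amount of its solvent DMSO. By the labels neither group received dsRNA, and no genetic change is named. PolyA RNA was sequenced from 2 libraries of each. The tables hold 1 value per condition, as FPKM (fragments per kilobase of transcript, scaled to the depth of the library), with a lower and an upper bound for each gene whose level is not named. No spread between libraries can therefore be given, no test between the conditions was made, and a difference is described here by whether the bounds of the conditions overlap.

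All 4 genes encode nuclear receptors, transcription factors of the family that also includes the ecdysone receptor. A 20E pulse acts through the heterodimer of EcR and Usp, which switches on early genes. Early-late receptors follow in the same pulse and in flies lead to the expression of *ftz-f1* once the hormone level has dropped. The Hr46 protein activates *ftz-f1* and represses early genes in prepupae, and Hr4 acts in the same direction. Hr39 is the closest relative of FTZ-F1 and can bind the same DNA element. FTZ-F1 exists as a longer α form, a partner of the segmentation protein Ftz in the embryo, and a shorter β form, which gives prepupal tissues the competence to respond to the next pulse.

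In the tables, whose genome build is not named, *Hr46* (FBgn0000448) lies at 2R:6091617-6124853, *Hr4* (FBgn0264562) at X:1835973-1903397, *Hr39* (FBgn0261239) at 2L:21237250-21259675 and *ftz-f1* (FBgn0001078) at 3L:18743707-18794409. The tables give CG12912 the same locus as *Hr46* and CG4406 the same locus as *Hr4*, so these positions span more than 1 gene, while no other listed gene overlaps the loci of *Hr39* and *ftz-f1*.

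**Figure D1:**
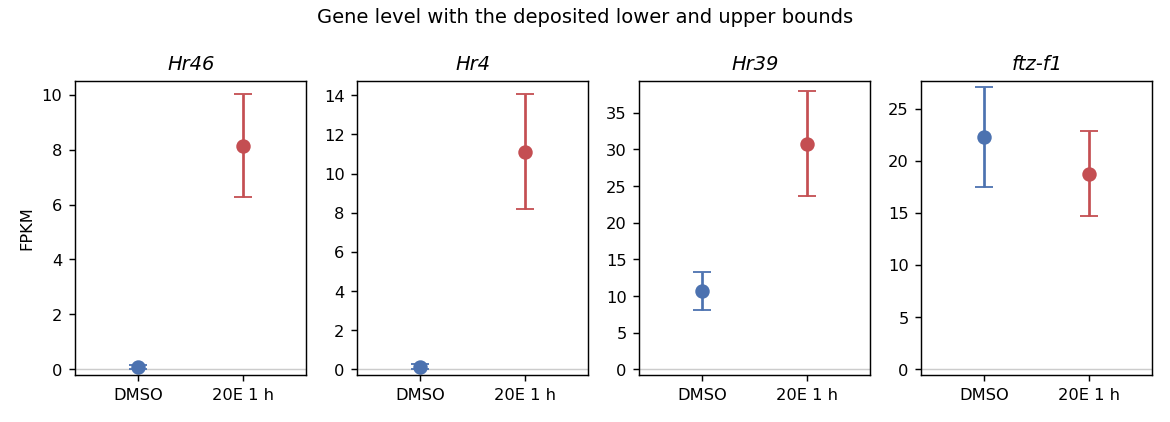
FPKM of each gene in DMSO-treated and 20E-treated S2 cells, 1 deposited value per condition (points) with its deposited lower and upper bounds (bars), each panel on its own linear axis. The bounds are apart for *Hr46*, *Hr4* and *Hr39*, and overlap for *ftz-f1*.

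After 1 h of 20E, *Hr46*, *Hr4* and *Hr39* were higher and *ftz-f1* was not. *Hr46* had 0.0834 FPKM under DMSO, with bounds of 0.00631 and 0.160, against 8.14 FPKM under 20E, with bounds of 6.26 and 10.0. *Hr4* had 0.138 FPKM under DMSO, with bounds of 0 and 0.289, against 11.1 FPKM under 20E, with bounds of 8.18 and 14.0. Both genes were thus close to silent in DMSO-treated cells and reached a moderate level within the hour. *Hr39* was already expressed in DMSO, at 10.7 FPKM with bounds of 8.13 and 13.3, and reached 30.7 FPKM, with bounds of 23.6 and 37.9. *ftz-f1* had 22.3 FPKM under DMSO, with bounds of 17.4 and 27.1, against 18.7 FPKM under 20E, with bounds of 14.7 and 22.8. In the plot of levels with their bounds, *ftz-f1* is the gene whose intervals share a range. In bulk RNA, more responding cells and more RNA per cell cannot be told apart.

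Taking the bounds at their least favourable, *Hr46* was still 39.0-fold higher in 20E, *Hr4* 28.3-fold and *Hr39* 1.78-fold. The ratio of the deposited values was 97.6 for *Hr46*, 80.4 for *Hr4*, 2.87 for *Hr39* and 0.842 for *ftz-f1*. For *ftz-f1* the bounds allow ratios from 0.542 to 1.31, on both sides of 1. With 1 FPKM added to each value, a step which understates the change of low genes, the log2 change was 3.08 for *Hr46*, 3.41 for *Hr4*, 1.44 for *Hr39* and -0.24 for *ftz-f1*. On this scale the ratio of 20E to DMSO was above 2 in 3 of the 4 genes, a criterion met by 0.295% of all genes, and 0 were less than 0.5 times as high (0.0321% of all genes). The bounds were apart, with 20E higher, for 3 of the 4 genes, as for 0.430% of all genes, and apart with 20E lower for 0 of them (0.0769% of all genes). The 4 genes are known members of the hormone response, chosen by name with results of these data known, so these counts are a description.

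**Figure D2:**
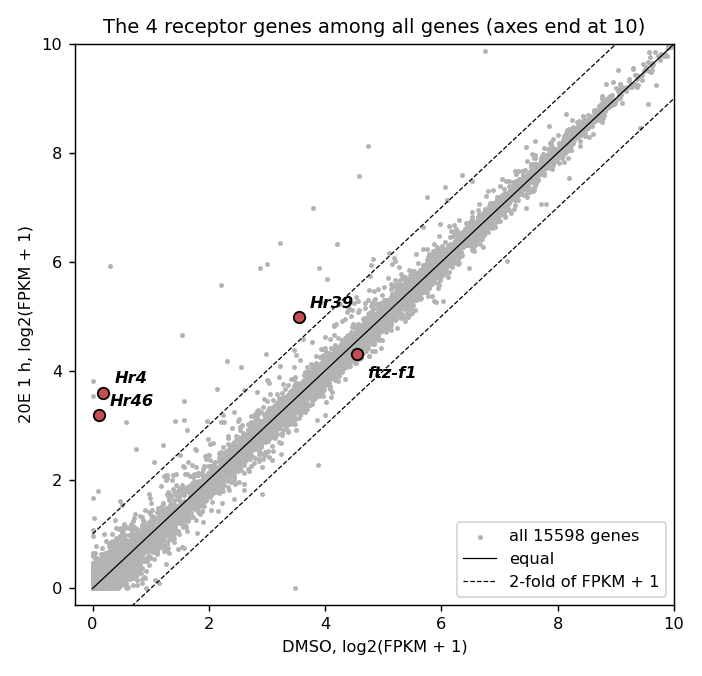
Level of all 15598 genes (grey) in DMSO (horizontal axis) and after 1 h of 20E (vertical axis), both as log2(FPKM + 1), with the 4 receptor genes in red. Dashed lines mark a ratio of 2 between FPKM + 1 values, and genes above 10 on either axis lie outside the plot. *Hr46* and *Hr4* lie at the left edge far above the upper line, *Hr39* above it, and *ftz-f1* just under the line of equality.

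The order of the 4 genes changed with the treatment. In DMSO, *ftz-f1* had the highest level, *Hr39* came next, and *Hr4* and *Hr46* were last with overlapping bounds. In 20E, *Hr39* had the highest level, above *ftz-f1*, and *Hr4* and *Hr46* were again last with overlapping bounds. All other neighbours in either order had bounds that did not overlap. The gain in FPKM was 20.0 for *Hr39*, 11.0 for *Hr4* and 8.05 for *Hr46*, while *ftz-f1* differed by -3.51 FPKM. By gain, *Hr39* took rank 298 among all genes, *Hr4* rank 536 and *Hr46* rank 665. Bounds were apart with 20E higher for 67 of all genes, so most genes ranked above these by gain had overlapping bounds. By ratio without an added value, among 7614 genes with at least 1 FPKM in 20E and a DMSO value above 0, *Hr46* took rank 2, *Hr4* rank 3 and *Hr39* rank 37. This set was drawn by the 20E value, which favours higher genes in 20E. It leaves out genes at 0 in DMSO, such as CR43708 with 10.6 FPKM in 20E. The lower bound of *Hr4* in DMSO was 0, so its ratio has no upper limit, and these ranks are a description. *Hr46* and *Hr4* also lie apart from most genes in the plot of all genes.

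**Figure D3:**
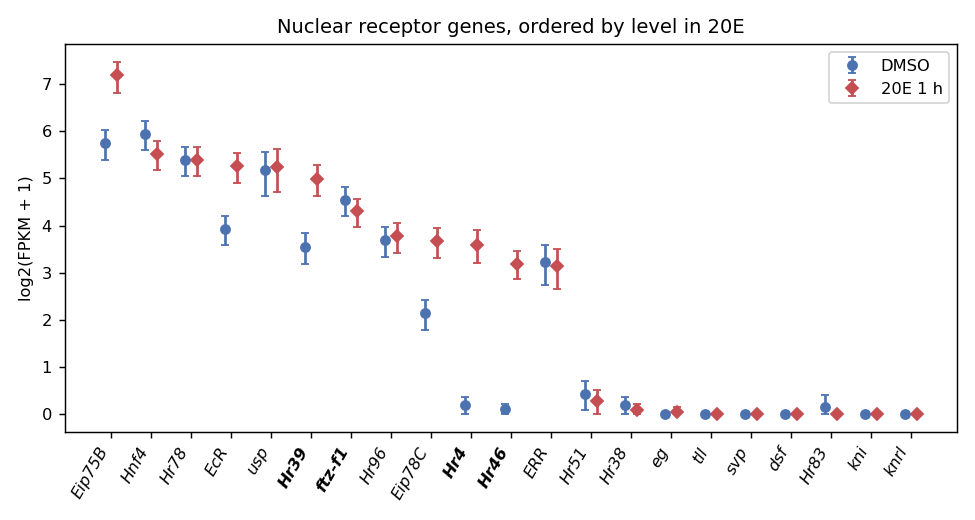
Level of 21 nuclear receptor genes as log2(FPKM + 1) in DMSO (circles) and 20E (diamonds), 1 deposited value per condition with the deposited bounds (bars), ordered by the level in 20E. The 4 genes described here are in bold. *Hr4* and *Hr46* start among the receptors under 1 FPKM in DMSO and end at rank 10 and rank 11 in 20E.

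Among 21 nuclear receptor genes of the fly, *Hr46* moved from rank 15 in DMSO to rank 11 in 20E, *Hr4* from rank 13 to rank 10 and *Hr39* from rank 8 to rank 6, while *ftz-f1* went from rank 5 to rank 7. The share of *ftz-f1* in the summed FPKM of these receptors was 8.52% in DMSO and 4.61% in 20E, and that of *Hr39* was 4.10% and 7.57%. The sum itself went from 261 FPKM in DMSO to 406 FPKM in 20E, with *Eip75B* alone going from 52.8 to 145 FPKM. The bounds of *ftz-f1* overlapped, so its lower share and rank are not to be read as a loss of *ftz-f1* RNA. The plot of receptor levels shows which others were higher: of the 17 remaining receptors, *EcR*, *Eip75B* and *Eip78C* were more than 2-fold higher with bounds apart, and the other 14 had overlapping bounds or were listed at 0. Among all 15598 genes, 31 were more than 2-fold higher with bounds apart. The median log2 change of these 17 was 0, as it was over all genes. Of the 17, however, 5 were at 0 in both conditions and 9 were under 1 FPKM in both, so this median says little about response. A value of exactly 0 is not read as absence here, because *Ef1alpha48D*, a translation factor gene that every cell uses, is listed at 0 too.

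**Figure D4:**
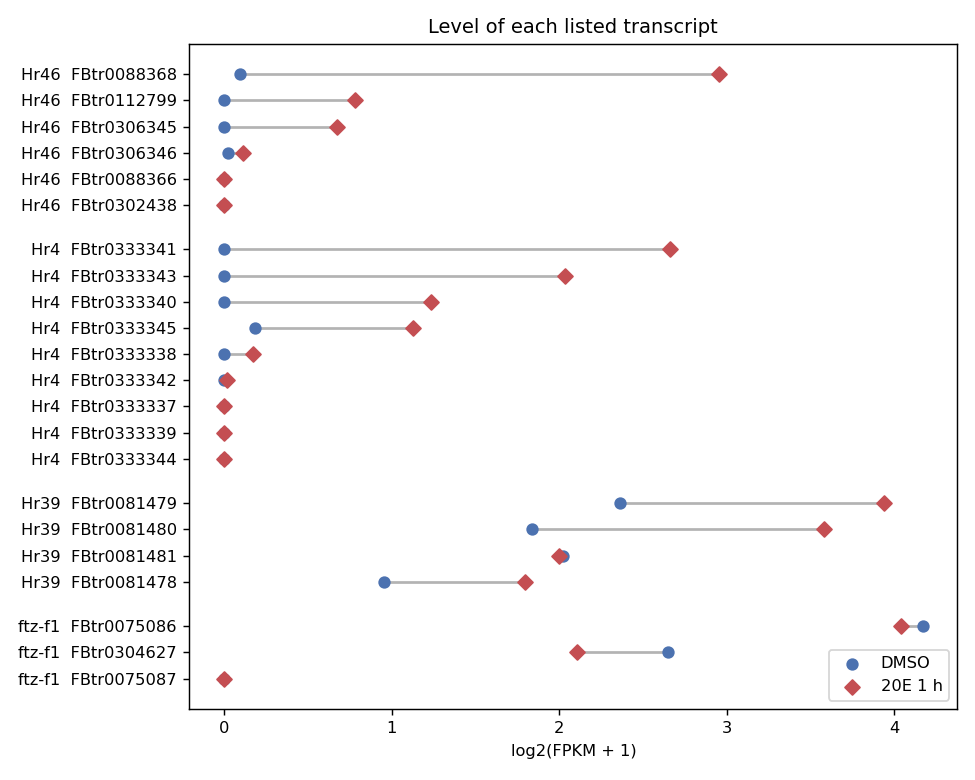
Level of each of the 22 listed transcripts as log2(FPKM + 1) in DMSO (circles) and 20E (diamonds), 1 deposited value per condition, grouped by gene. Most of the *Hr4* transcripts start from 0, *Hr39* transcripts start from above 0, and both detected *ftz-f1* transcripts lie lower in 20E.

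By transcript, 6 of the 22 were more than 2-fold higher in 20E on the FPKM + 1 scale (1.83% of all transcripts), 0 were less than 0.5 times as high (1.03% of all transcripts), and 6 were listed at 0 in both conditions. The deposited tables give no bounds for transcripts. The division of a gene's fragments among transcripts that share most of their exons is an estimate, and the plot of transcript levels should be read with this in mind. Structures of 20 of the 22 transcripts were found by FlyBase identifier in the BDGP6 annotation, and the start sites, lengths and protein sizes below come from it.

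For *Hr46*, 1 of 6 transcripts carried most of the level. FBtr0088368, which codes for 487 residues, stood at 0.0664 FPKM in DMSO and at 6.74 FPKM in 20E, or 82.9% of the gene in 20E. FBtr0306345 has the same start site and protein size and a longer 3′ end, and went from 0 to 0.596 FPKM. Together these transcripts of the third start site, 9391 bases downstream of the first, made up 90.2% of *Hr46* in 20E. FBtr0112799, from the first start site and with 456 residues, went from 0.00013 FPKM, which is under the value of 1 fragment, to 0.718 FPKM, and FBtr0088366, from the second start site and with 694 residues, was listed at 0 in both conditions. The expressed *Hr46* RNA was thus mostly that for the 487-residue protein. FBtr0306346 and FBtr0302438 are not in BDGP6, and the first of them had 0.0169 FPKM in DMSO and 0.0791 FPKM in 20E and the second 0 in both. All exons of FBtr0088366 and 3882 exon bases of the other annotated transcripts are shared on the same strand with CG12912, which is listed at 0 in both conditions, so reads from the shared bases cannot be told apart. BDGP6 also places exons of FBgn0284237, which the tables do not list, over all 6071 bases of FBtr0088368.

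For *Hr4*, the level in 20E was spread over more transcripts. FBtr0333341 (1518 residues) was listed at 0 in DMSO and at 5.34 FPKM in 20E, FBtr0333343 (2123 residues) at 0 and 3.10 FPKM, and FBtr0333340 (1529 residues) at 0 and 1.35 FPKM. By the estimate, these 3 transcripts made up 48.0%, 27.9% and 12.2% of the gene in 20E. They code for proteins of quite different length but share their start and 3′ end, and are 8403, 8338 and 8596 bases long. No bounds are given for the split among them. FBtr0333345 (1843 residues) is the transcript to which all of the DMSO level was assigned, and it went from 0.138 to 1.18 FPKM. Alone among the *Hr4* transcripts it runs past the common 3′ end, and 46 of its exon bases are shared with CG4406 on the opposite strand. CG4406 had 30.4 FPKM under DMSO, with bounds of 23.1 and 37.8, against 31.9 FPKM under 20E, with bounds of 16.5 and 47.4. Whether the counting used strand is not given in the sources used here, and the part of this overlap in the DMSO level of *Hr4* was not tested. FBtr0333342 reached 0.0123 FPKM in 20E from 0, and FBtr0333337, FBtr0333339 and FBtr0333344 were listed at 0 in both conditions. Without FBtr0333345 the other 8 transcripts sum to 0 in DMSO and 9.93 FPKM in 20E.

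**Figure D5:**
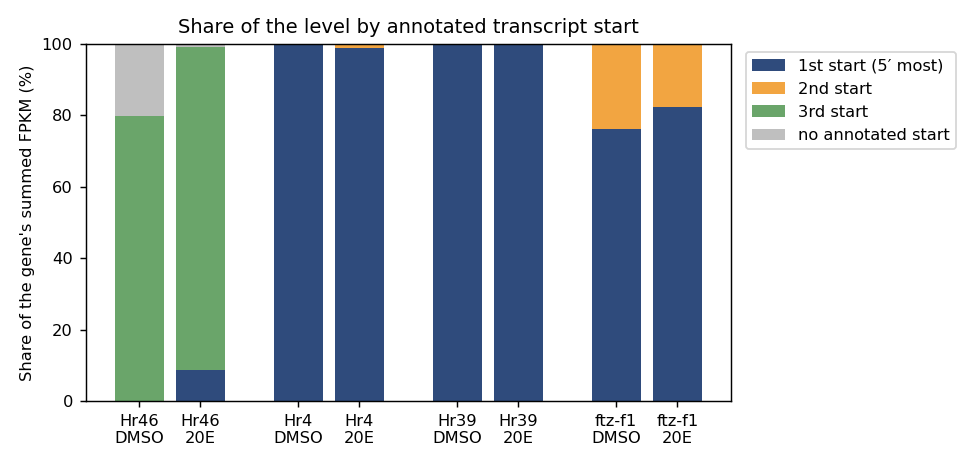
Share of the summed FPKM of each gene (vertical axis, percent) by annotated transcript start site, counted from the 5′ end, in DMSO and in 20E. *Hr46* draws mainly on the third start, *Hr4* and *Hr39* on their first, and *ftz-f1* on its first with a smaller share from the second.

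In the plot of shares by start site, 98.9% of the *Hr4* level in 20E came from its first start. The second start, 50360 bases downstream, serves FBtr0333338 and FBtr0333339, and these summed to 0.127 FPKM in 20E. *Hr39* has a single annotated start. Of its 4 transcripts, FBtr0081479 went from 4.14 to 14.3 FPKM and FBtr0081480 from 2.57 to 11.0 FPKM, ratios of 3.46 and 4.26. FBtr0081478, which codes for 701 residues instead of 808, went from 0.937 to 2.47 FPKM, a ratio of 2.64. FBtr0081481 stood at 3.06 and 3.00 FPKM. This last transcript shares 7 exons with FBtr0081479 and differs from it by 16 bases at the end of the first exon. Summed, the pair went from 7.20 to 17.3 FPKM, a ratio of 2.40, so that the split within the pair rests on very few bases. The 701-residue form made up 8.74% of *Hr39* in DMSO and 8.05% in 20E.

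The *ftz-f1* level came mostly from the longer protein form. FBtr0075086 starts at the first, most 5′ site and codes for 1027 residues, the size class of α FTZ-F1. It had 17.0 FPKM in DMSO and 15.4 FPKM in 20E, which is 76.3% and 82.4% of the gene. FBtr0304627 starts 35565 bases downstream and codes for 803 residues, the size class of the β form. It had 5.28 FPKM in DMSO and 3.31 FPKM in 20E, a ratio of 0.627. FBtr0075087, with the same protein size, was listed at 0 in both conditions. The prepupal competence form was therefore the minor part of *ftz-f1* RNA in these cells, and its estimate was the lower one in 20E. Without bounds for transcripts it cannot be said whether the share of the 803-residue form, 23.7% in DMSO and 17.6% in 20E, differed. FBtr0075086 also shares 2521 exon bases on the same strand with an annotated noncoding RNA gene (FBgn0267601) that the tables do not list.

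The promoter sequences of the start sites that carried the levels of *Hr4*, *Hr39* and *ftz-f1* are shown next. Each window runs from 250 bases before the start to 50 bases from the start on, 5′ to 3′ on the strand of the gene, in the dm6 genome (RefSeq, Release 6). The windows were located by transcript identifier in the BDGP6 annotation and not by the positions in the tables. Those positions are of an unnamed build, and for *Hr4* and *ftz-f1* they differ from the BDGP6 ones. Capitals mark every match to GAGAG on either strand (CTCTC on the other), the core of the element bound by GAGA factor, a protein found at many paused promoters of the fly. The windows are chrX:1941690-1941989 on the + strand for *Hr4*, chr2L:21237000-21237299 on the + strand for *Hr39*, chr3L:18801260-18801559 on the - strand for the first start of *ftz-f1* and chr3L:18765695-18765994 on the - strand for its second.
Hr4, first start: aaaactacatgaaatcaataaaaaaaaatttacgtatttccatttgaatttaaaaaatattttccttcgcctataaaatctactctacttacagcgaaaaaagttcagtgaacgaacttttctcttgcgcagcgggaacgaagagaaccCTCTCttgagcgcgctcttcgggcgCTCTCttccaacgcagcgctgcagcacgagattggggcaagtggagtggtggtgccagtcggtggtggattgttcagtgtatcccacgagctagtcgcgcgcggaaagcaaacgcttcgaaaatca
Hr39: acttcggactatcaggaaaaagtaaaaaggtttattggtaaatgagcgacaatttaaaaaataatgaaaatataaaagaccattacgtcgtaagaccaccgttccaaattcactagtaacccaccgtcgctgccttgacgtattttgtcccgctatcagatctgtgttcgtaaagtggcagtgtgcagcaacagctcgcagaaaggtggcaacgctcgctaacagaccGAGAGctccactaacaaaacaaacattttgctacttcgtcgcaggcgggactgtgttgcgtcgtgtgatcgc
ftz-f1, first start: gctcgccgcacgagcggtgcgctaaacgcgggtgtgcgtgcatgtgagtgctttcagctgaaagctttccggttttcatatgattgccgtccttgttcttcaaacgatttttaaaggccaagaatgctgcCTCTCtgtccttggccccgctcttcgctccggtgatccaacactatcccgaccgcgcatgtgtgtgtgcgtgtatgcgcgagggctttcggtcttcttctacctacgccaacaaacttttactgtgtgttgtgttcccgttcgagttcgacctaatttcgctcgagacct
ftz-f1, second start: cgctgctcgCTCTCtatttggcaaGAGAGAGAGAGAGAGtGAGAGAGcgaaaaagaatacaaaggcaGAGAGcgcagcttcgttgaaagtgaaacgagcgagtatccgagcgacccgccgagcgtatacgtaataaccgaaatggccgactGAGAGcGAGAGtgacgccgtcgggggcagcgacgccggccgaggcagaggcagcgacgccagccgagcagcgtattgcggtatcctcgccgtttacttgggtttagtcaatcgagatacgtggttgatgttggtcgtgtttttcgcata

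GAGAG occurred 2 times in the *Hr4* window, beginning 101 and 76 bases before the start, and 1 time in the *Hr39* window, 22 bases before it. The first start of *ftz-f1* had 1 match and the second had 12, overlapping ones counted, most of them in a GA repeat. The leading start of *Hr46* had 4 matches between 137 and 123 bases before it. All of these windows hold the word, which 33.0% of 18256 windows of protein-coding genes in the tables hold. Among the other windows of the 4 genes, the second start of *Hr4*, with little of its level, had 8 matches. The first and second starts of *Hr46* and the third start of *ftz-f1* had 0. The nuclear receptor half-site AGGTCA had 0 matches on either strand in each of the 9 windows of the 4 genes, and 5.78% of all windows hold it. Its longer version AAGGTCA, which contains AGGTCA, occurs in 2.14% of windows. TATAAA was found 1 time in the *Hr4* window and 1 time in the *Hr39* window, 179 and 180 bases before the start. The window of the third start of *ftz-f1* held 5 matches, and 42.5% of all windows hold the word. TCAGT, part of the initiator element, lay 3 bases before the *Hr4* start and again 146 bases before it, against 51.9% of windows with a match. On the other strand it lay 177 bases before the leading start of *Hr46* and 64 bases before its second start. The second start of *ftz-f1* had it 102 bases upstream, also on the other strand. A match is a match of letters, and binding was not measured by these tables.

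Other genes of the pathway put these values in context. The list of 10 early ecdysone genes also held *usp*, the gene of the EcR partner. Of these 10, 7 passed the 2-fold criterion upward with bounds apart and 0 downward, and the median log2 change of the 10 was 1.48. Of all genes, 0.295% passed the 2-fold criterion upward, and 0.430% had bounds apart with 20E higher. Both held for 31 of the 15598 genes. On the FPKM + 1 scale *vri*, a bZIP repressor gene, had a log2 change of 3.20 and *br*, which encodes zinc finger factors, of 2.96. Without an added value their ratios were 9.86 and 8.78, well under those of *Hr46* and *Hr4*, and their DMSO levels were 12.8 and 6.98 FPKM. *E23*, an ABC transporter gene, had a ratio of 40.1 without an added value, from 0.0615 FPKM in DMSO to 2.47 FPKM in 20E. *EcR* and *Eip75B* had ratios of 2.62 and 2.74, beside 2.87 for *Hr39*. *usp*, *crol* and *Hr38* had overlapping bounds. Of the 6 regulators or candidate regulators of *ftz-f1* in the list drawn up here, 4 were higher by the same criteria, namely *Hr46*, *Hr4*, *Eip78C* and *Eip75B*. With *Hr46* and *Hr4*, described above, left out, 2 of 4 were higher. *Eip75B* encodes a receptor that can bind Hr46, and had 145 FPKM in 20E, with bounds of 112 and 177, summed over its isoforms. Its part in the level of *ftz-f1* was not tested. *Blimp-1*, a repressor of *ftz-f1* that 20E induces in prepupae, had 0.419 FPKM under DMSO, with bounds of 0.208 and 0.631, against 0.379 FPKM under 20E, with bounds of 0.188 and 0.571. *Hr78*, a receptor gene of wide expression, was at 41.0 FPKM in both conditions.

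Of 11 targets and partners of FTZ-F1, 2 were more than 2-fold higher (0.295% of all genes), *br* and *Eip74EF*, which are early genes as well. *ftz*, the partner of the α form, and the cuticle genes *Edg84A* and *Edg91* were among 6 genes of this list at 0 in both conditions, and 8 of the 11 were under 1 FPKM in both. *Eip93F*, a prepupal target of FTZ-F1, had 1.49 FPKM under DMSO, with bounds of 1.06 and 1.91, against 1.63 FPKM under 20E, with bounds of 1.05 and 2.21. The median log2 change of the list was 0, a value fixed by the 6 genes at 0 in both conditions.

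The genes most like each receptor were found by distance between 2 values, log2(FPKM + 1) in DMSO and in 20E. *Hr46* and *Hr4* were near each other, at a distance of 0.41, each being among the 3 nearest genes of the other out of all 15598. CR43708, a noncoding RNA gene listed at 0 in DMSO and at 10.6 FPKM in 20E, was the nearest to both, at 0.36 from *Hr46* and 0.20 from *Hr4*. *Hr39* had Sox14, at 0.42, as its nearest gene and *EcR*, at 0.47, as the second. Sox14, a transcription factor gene, had 11.4 FPKM under DMSO, with bounds of 8.70 and 14.0, against 22.9 FPKM under 20E, with bounds of 17.8 and 28.0. For *ftz-f1* the nearest genes, CG5808, cerv and Rpb4, lay at 0.017, 0.0217 and 0.0222 and are genes of about the same level as *ftz-f1* in each condition. With 2 values a gene, likeness says little beyond level and change.

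The tables give no counts. Low values of genes with 1 transcript fell near whole steps, however, at the step size that gave the largest share in each condition. At that size, 94.0% of 401 values in DMSO and 76.5% of 375 in 20E lay within 0.15 of a whole number. Chance gives 30% for a step fixed in advance. A step picked as the best of many gives more, so these shares are a description. By the size of the picked steps, 1 FPKM would stand for 1.48 times as many fragments in 20E as in DMSO. In such steps, and over the annotated transcripts, the DMSO level of *Hr46* corresponds to about 32.3 fragments and that of *Hr4* to about 141, while *Hr39* and *ftz-f1* rest on about 3614 and 9799. The DMSO values of *Hr46* and *Hr4* are thus the least precise ones. Of 8 hemocyte markers matched by symbol, 7 were at 1 FPKM or more in both conditions, *srp* and *Pxn* among them, and *Hml* was at 0.104 and 0.0944 FPKM. Their sum was 575 FPKM without and 549 FPKM with the hormone. Of 12 markers of neurons, muscle, fat body, germ line and ring gland matched by symbol, 10 were under 1 FPKM in both conditions, with 3 at 0 in both. The exceptions were *elav* at 3.63 and 3.66 FPKM and *bam* at 26.4 and 31.8 FPKM.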

How the data were processed

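The RNA-seq of hormone-treated (0.3 μM 20E, 1 h) and DMSO-treated S2 cells was analysed, with 2 libraries per condition by the labels. The authors deposited FPKM values of 15598 genes and 28704 transcripts, 1 column per condition, with lower and upper bounds for genes. How the 2 libraries entered a column is not given in the sources used here. The layout is that of Cuffdiff, and the submitters' processing notes name TopHat2, Bowtie2 2.3.4.2, deepTools 3.0.2 and bcl2fastq 2.17.1.14 and the builds dm3 and dm6 for the series as a whole. Columns with the authors' own test of transcripts (fold change, statistic, p and q) were not used. The remaining 49 samples, from ChIP-seq and its inputs, were not analysed here.

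Changes were computed as log2((20E + 1) / (DMSO + 1)). Genes were counted as higher above a ratio of 2 of FPKM + 1, or where bounds did not overlap. No filter on low values was applied. With 1 value per condition no test was run. The call was tested on simulated data, with large changes planted only in genes of higher level. Planted rises there pass the ratio by construction, so the test does not cover low genes such as *Hr46* and *Hr4* in DMSO. Named genes are the 4 members and their transcripts, the 3 genes nearest to each, genes overlapping a member, and genes of fixed lists. Members and lists were chosen with earlier results of these data known. Genes in the lists were matched by exact symbol. Genes that the deposited data spell otherwise, such as *alien* and *n-syb*, were therefore not counted. Transcript structures and promoter windows came from Ensembl release 115 of BDGP6 and the RefSeq Release 6 genome, by identifier. Of the members, *Hr39* has the same start and end in the tables and in BDGP6, and the others do not. The locus of *ftz-f1* is 50703 bases long in both, at another position. Those of *Hr46* and *Hr4* are shared with a neighbouring gene in the tables. Steps were sought in genes with 1 transcript of 1000 to 6000 bases, less 200 bases, and the size with the largest share of whole values was kept. The planned comparison of protein sequences was not run. Values were computed with pandas 2.3.3 and NumPy 2.4.6 under Python 3.11.15, and drawn with Matplotlib 3.10.9.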

Additional observations from a re-analysis of the deposited data

How the results depend on the processing

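No paired analysis was possible because the libraries of a condition share 1 column, and for the same reason leaving out each replicate was not run. The size of the log2 change depended on the added value where DMSO was near 0. With 0.1 in place of 1 it was 5.49 for Hr46 and 5.56 for Hr4, and with 0.01 it was 6.45 and 6.23, so that their order turned, while Hr39 (1.51 and 1.52) and ftz-f1 (-0.25 and -0.25) stayed within the range that the bounds allow. The count of 6 transcripts more than 2-fold higher became 11 with 0.1 added and 10 with a ratio above 1.5. It was 4 when the ratio had to exceed 3, and 5 with a mean of at least 1 FPKM. The gene count was 3 under each alternative run but the stricter ratio of 3, which left 2 without Hr39. Bounds were apart for the same number of genes when each value only had to lie outside the other's bounds. Scaling the 20E values to a median change of 0 and summing transcripts moved the log2 changes by less than 0.01. Leaving out FBtr0333345, chosen after seeing the data, gave 3.45 for Hr4. Joining start sites within 100 bases changed no share.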

Other observations

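Genes of nuclear receptor cofactors were also listed. Of 10 matched by symbol, 8 had overlapping bounds, among them the corepressor gene Smr and the histone acetyltransferase gene nej. Outside the receptor gene EcR, which the list also holds, tai was higher in 20E with bounds apart. tai encodes a p160 coactivator of the ecdysone receptor and had 26.0 FPKM under DMSO, with bounds of 20.4 and 31.5, against 43.7 FPKM under 20E, with bounds of 34.4 and 53.0, a log2 change of 0.73 that is under the 2-fold criterion. It is named because of this value, after the values were seen.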
